A study of Mus musculus with 2 samples.

Results

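Peripheral myelin and Schwann cell transcripts were read in mouse gastrocnemius, a calf muscle whose samples also carry the ends of its motor and sensory nerves. The 5 genes were chosen by name: Mbp, Pmp22, Prx, S100b and Mpzl1. They are 5 of the 15508 annotated genes that had at least 1 read, and every transcript model assigned to them was used, 49 of 72469 models in replicate 1 and 27 of 88667 models in replicate 2. The study measured long-read RNA-seq, in which a read can span a whole transcript, in 1 group of 2 libraries. Both came from gastrocnemius of male B6CASTF1/J mice (hybrids of the C57BL/6J and CAST/EiJ strains), 36 days old, with 2 µg of RNA each and spike-in RNA added to both. The labels name 2 animals, male 03 for replicate 1 and male 04 for replicate 2, but give both the same donor entry, so differences between the libraries measure only the spread between these 2 samples, which may be technical. There is no treatment or genotype to compare.

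Schwann cells wrap the axons of peripheral nerves, and a myelinating Schwann cell winds its membrane around 1 stretch of axon and compacts it into myelin. Mbp (myelin basic protein) lies on the inner face of the membrane and helps to compact it, and Pmp22 (peripheral myelin protein 22) is a small protein that spans the membrane of compact myelin. Gene dosage of PMP22 is known from human inherited neuropathies. Prx (periaxin) is a scaffold protein of myelinating Schwann cells that links them to the surrounding basal lamina through dystroglycan and Drp2. S100b is a calcium-binding protein widely used to mark Schwann cells, although fat and cartilage cells also make it. Mpzl1 is a membrane protein of the immunoglobulin superfamily that is made in many cell types, and its tail binds the phosphatase Ptpn11.

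3 kinds of sequence carry what follows: the 2 start regions of Pmp22, the last intron of Prx and an exon of Mpzl1 that 1 of its forms lacks. The Pmp22 regions are the 250 bases before each RefSeq start on chromosome 11 (GRCm38.p6, the same assembly as mm10, plus strand), at chr11:63128732-63128981 for exon 1A and chr11:63131207-63131456 for exon 1B. Capitals mark matches on either strand to a GC box (GGGCGG, read here as its complement) or a CCAAT box (read here as its complement).
Pmp22 exon 1A: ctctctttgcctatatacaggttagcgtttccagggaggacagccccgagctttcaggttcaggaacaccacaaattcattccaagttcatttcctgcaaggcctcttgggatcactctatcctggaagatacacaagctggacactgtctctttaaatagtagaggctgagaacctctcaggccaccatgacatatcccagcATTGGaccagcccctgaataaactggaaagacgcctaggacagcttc
Pmp22 exon 1B: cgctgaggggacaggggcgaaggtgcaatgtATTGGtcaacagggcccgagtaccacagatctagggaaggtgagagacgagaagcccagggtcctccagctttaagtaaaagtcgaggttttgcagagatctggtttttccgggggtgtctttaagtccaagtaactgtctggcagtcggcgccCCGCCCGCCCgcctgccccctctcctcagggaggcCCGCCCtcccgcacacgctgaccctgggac
The region before exon 1A held 1 CCAAT match and no GC box, and the region before exon 1B held 1 CCAAT match and 3 GC box matches, of which a pair overlap. Neither held TATAAA on either strand. Among 32851 RefSeq mouse promoters cut to the same length, 33.8% held CCAAT, 32.7% held GGGCGG and 12.4% held TATAAA. G and C made up 48.8% of the bases before exon 1A and 61.2% of those before exon 1B, around a median of 52.4% over all of these promoters. A match to such letters is a description of the window and not a shown binding site.

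The Prx stretches come from the GENCODE M21 transcripts on chromosome 7 (mm10, plus strand) and show the 2 ways the transcript can continue past the last 30 bases of its penultimate exon. In the spliced form the last exon follows, in capitals, across an intron of 592 bases (chr7:27515418-27516069 with the intron taken out). In the retained form the reading frame runs on for 63 intron bases and ends at a stop codon, in capitals (chr7:27515418-27515513).
Prx spliced: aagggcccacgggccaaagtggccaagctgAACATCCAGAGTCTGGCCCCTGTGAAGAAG
Prx retained: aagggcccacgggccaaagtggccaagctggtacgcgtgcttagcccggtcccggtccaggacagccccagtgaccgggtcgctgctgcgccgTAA
The Mpzl1 exon has 106 bases, lies on the minus strand of chromosome 1 (mm10, chr1:165601750-165601855) and is kept in 1 annotated full-length form and skipped in another. Since its length is not a multiple of 3, its loss changes the reading frame of the end of the protein.
Mpzl1 exon: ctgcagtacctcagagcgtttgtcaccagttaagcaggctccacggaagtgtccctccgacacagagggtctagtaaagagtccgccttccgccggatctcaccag

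The libraries differed in ways that touch every value below. Replicate 1 held 1106945 reads and replicate 2 held 1514119 reads, of which 1036455 and 1374068 fell in annotated mouse genes. Single-exon models held 7.70% of the gene reads of replicate 1 and 16.5% of those of replicate 2, and reads outside annotated genes made up 2.79% and 7.00% of mouse reads. A count of 0 allows a level of up to 2.89 CPM (counts per 1000000 reads in annotated genes) in replicate 1 and 2.18 CPM in replicate 2, with 3 counts taken as the limit. Intervals and such limits cover counting error only.

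A long read stands for about 1 transcript molecule, so levels in CPM are not divided by transcript length when genes are set side by side. The ratio between the libraries followed transcript length (below), so levels of genes of unlike length may still depend on it. Pmp22 (ENSMUSG00000018217.12, chromosome 11, 63128982 to 63159547, plus strand) had 561 reads in replicate 1 and 239 reads in replicate 2, which is 541 and 174 CPM, and averaged 358 ± 260 CPM (SD, n = 2). Mbp (ENSMUSG00000041607.17, chromosome 18, 82475146 to 82585637, plus strand) had 507 and 90 reads, or 489 CPM in replicate 1 and 65.5 CPM in replicate 2, and averaged 277 ± 300 CPM (SD, n = 2). These genes ranked 278 (Pmp22) and 373 (Mbp) by mean level among the 15508 genes with reads. Replicate 1 was the higher library for both. Pmp22 lay above Mbp in each library, but the gap between their means was smaller than the spread between the libraries.

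The other 3 genes were low. Prx (ENSMUSG00000053198.13, chromosome 7, 27499324 to 27520214, plus strand) had 30 reads in replicate 1 and 3 in replicate 2, which is 28.9 and 2.18 CPM, with a mean of 15.6 ± 18.9 CPM (SD, n = 2). Mpzl1 (ENSMUSG00000026566.15, chromosome 1, 165592240 to 165634538, minus strand) had 23 and 12 reads, or 22.2 CPM in replicate 1 and 8.73 CPM in replicate 2, with a mean of 15.5 ± 9.52 CPM (SD, n = 2). S100b (ENSMUSG00000033208.7, chromosome 10, 76253853 to 76261159, plus strand) had 9 and 11 reads, or 8.68 CPM in replicate 1 and 8.01 CPM in replicate 2, with a mean of 8.34 ± 0.479 CPM (SD, n = 2). Each library placed Pmp22 and Mbp above these 3 genes, whose highest value of 28.9 CPM (Prx, replicate 1) stayed under the lower Mbp value of 65.5 CPM. Prx and Mpzl1 changed places between the libraries, and the S100b values lay inside the range of Prx, so the order of these 3 by level is not settled here. For Prx in replicate 2 the 3 reads stand at the limit that a count of 0 allows.

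**Figure D1:**
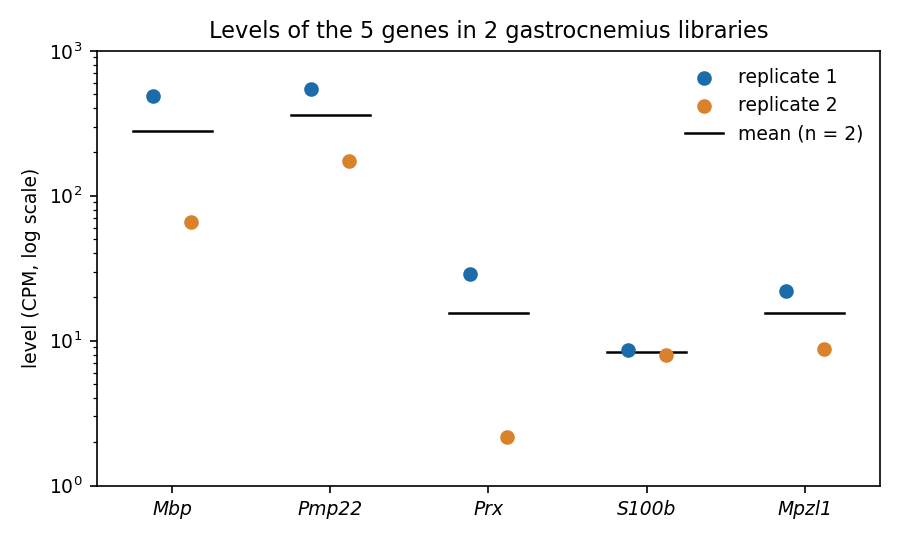
Level in CPM over reads in annotated genes (log axis) of each of the 5 genes, with a point for each library and a black line at the mean of 2. Replicate 1 lies above replicate 2 for Mbp, Pmp22, Prx and Mpzl1, by most for Prx (28.9 against 2.18 CPM), while the S100b points (8.68 and 8.01 CPM) nearly coincide.

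The 2 libraries were then compared gene by gene, which shows how far the myelin genes vary between these 2 muscle samples. Each ratio is replicate 1 over replicate 2, and each p is two-sided and comes from an exact binomial test on the 2 counts given the library totals, Benjamini-Hochberg adjusted over 8339 genes with at least 10 reads in sum; it compares these libraries and not conditions. All 5 genes passed that minimum, Prx (30 and 3 reads) only through its reads in replicate 1. Mbp, Pmp22, Prx and Mpzl1 were called higher in replicate 1 (adjusted p under 0.05 and at least 2-fold), where 12.0% of all tested genes were called higher in replicate 1, 5.53% higher in replicate 2 and 17.5% in either direction. That background is large: 1458 genes were called, and 3161 had an unadjusted p under 0.05.

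Mbp was 7.47-fold higher in replicate 1 (95% interval 5.96 to 9.45 for counting error, adjusted exact binomial p = 2.03e-97), a log2 ratio of 2.89. The ratio of only 66 of the 8339 tested genes was higher. Pmp22 was 3.11-fold higher in replicate 1 (2.67 to 3.64, adjusted exact binomial p = 5.92e-52), with 567 genes above it. Prx was 13.3-fold higher in replicate 1, on few reads (4.12 to 67.9, adjusted exact binomial p = 3.24e-07), and 20 genes had a higher ratio. Mbp stood at the 99.2 percentile of ratios and Pmp22 at the 93.2 percentile, and the interval of Mbp did not overlap that of Pmp22. Prx stood at 99.8, which only describes its place, since it passed the minimum of reads through replicate 1 alone.

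Mpzl1 was 2.54-fold higher in replicate 1 (1.21 to 5.60, adjusted exact binomial p = 0.0410), a call that was lost with TMM (adjusted exact binomial p = 0.142), with DESeq2 size factors (0.216), which came out at 1 for both libraries and so leave the counts unscaled for depth, with no minimum of reads (0.0757) and without partial and genomic models (0.176). S100b had a ratio of 1.08 (0.397 to 2.88, adjusted exact binomial p = 1), and that interval covers differences in either direction. Its log2 ratio of 0.13 turned to -0.15 with TMM and to -0.28 on the counts left unscaled by DESeq2 size factors of 1, without a call under any of them. Mbp and Pmp22 kept their calls under every scaling, filter and model set tried, and Prx wherever it had enough reads to be tested.

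The background itself moved with the scaling. Of the calls over all genes, 68.4% were higher in replicate 1 with library totals, against 38.0% with TMM and 25.7% with DESeq2 size factors of 1, that is on unscaled counts of libraries of unequal depth, as the median log2 ratio over the 8339 genes moved to -0.01 with TMM and -0.13 with those size factors from 0.28 with library totals. The ratio also followed transcript length, with long transcripts higher in replicate 1. At the length of the leading transcript the trend over all genes lay at a log2 ratio of 0.26 for Mbp (1922 bases), 0.19 for Pmp22 (1825 bases), 0.61 for Prx (4841 bases), -0.08 for S100b (1484 bases) and 0.43 for Mpzl1 (2285 bases). Once the trend was removed, the adjusted exact binomial p of Mpzl1 was 0.318 at a log2 ratio of 0.88, while Mbp, Pmp22 and Prx were still called.

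**Figure D2:**
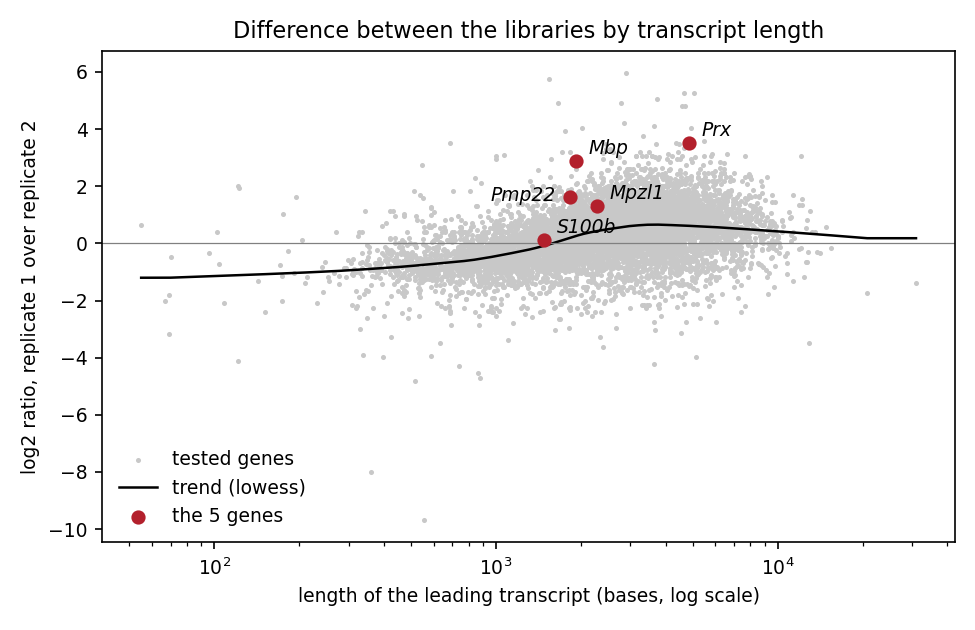
Log2 ratio of replicate 1 over replicate 2 (vertical axis) by the length in bases of each gene's leading transcript (horizontal, log axis), with grey points for the tested genes, a black line for their lowess trend and red points for the 5 genes. Prx lies 2.92 log2 units above the trend, Mbp 2.64, Pmp22 1.45 and Mpzl1 0.88, while S100b lies near it.

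Other myelin genes were read from lists of known genes. Of 11 further Schwann cell myelin proteins, 10 had reads and 5 had enough to be tested, of which 3 were called higher in replicate 1 and none in replicate 2. The median log2 ratio of the 5 was 2.46, or 2.28 with a gene at 0 in replicate 2 set at the limit of 3 counts, beside 0.28 over all tested genes. The summed level of the 11 was 149 CPM in replicate 1 against 56.0 CPM in replicate 2, of which Cd9 alone gave 65.6 and 42.2 CPM. Cnp, an enzyme that keeps cytoplasmic channels open within myelin, had 43 reads in replicate 1 and 10 in replicate 2 (log2 ratio 2.46, adjusted exact binomial p = 4.27e-07). Pmp2, a fatty acid binding protein of peripheral myelin, had 15 and 3 reads (log2 ratio 2.55, adjusted exact binomial p = 0.00605). Mal, a raft protein of myelin, had 11 reads in replicate 1 and 0 in replicate 2 (adjusted exact binomial p = 0.00129). Drp2, the partner of periaxin, had 11 and 4 reads and did not pass (adjusted exact binomial p = 0.0996), and Cd9, a tetraspanin, had 68 and 58 (adjusted exact binomial p = 0.0573). Cldn19, too low to test, had 0 reads in replicate 1 and 2 in replicate 2. Pmp2, Mal and Drp2 reached the minimum of 10 reads through replicate 1 alone. That minimum therefore favours genes high in replicate 1, and the median and calls of this list only describe the genes that passed.

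Genes that regulate Schwann cells were at the edge of detection. Sox10, the transcription factor that defines the lineage, had 3 reads in replicate 1 and 0 in replicate 2, and so had Egr2, the factor that drives myelin genes. Pou3f1 went the other way with 1 and 3 reads, Nab2 had 3 and 2, and Pou3f2 was at 0 in both. Of 10 such regulators only Nab1, a partner of Egr2, had enough reads to be tested, with 18 and 4, and it was called higher in replicate 1 (log2 ratio 2.45, adjusted exact binomial p = 0.00281). Of 10 enzymes of myelin lipid synthesis, 6 were tested and 2 called higher in replicate 1, and their median log2 ratio was 1.52. With Ugt8a set at the limit of 3 counts in replicate 2 that median is the same. The 2 enzymes were Ugt8a, which makes galactosylceramide, with 12 reads in replicate 1 and 0 in replicate 2 (adjusted exact binomial p = 0.000615), and Scd2, a fatty acid desaturase, with 22 and 2 (adjusted exact binomial p = 1.85e-05). Nab1, Ugt8a and Scd2 also reached the minimum of 10 reads through replicate 1 alone, so the same limit holds for these lists.

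Markers of other cell types were summed beside these values. All 7 oligodendrocyte markers, including Mog and Olig2, were at 0 in both libraries, so none of these listed markers of central myelin cells was detectable at this depth. Of 9 genes of non-myelinating Schwann cells, 4 were at 0 (Ngfr, L1cam, Cdh19 and Sox2), and the summed level of the 9 was 13.5 CPM in replicate 1 against 4.37 CPM in replicate 2. Axonal genes summed to 5 and 7 reads, with neurofilament genes Nefl and Nefh at 0. Genes of the perineurium and endoneurium summed to 25.1 and 14.6 CPM, of which Ntn4 gave 13.5 and 7.28 CPM. Endothelial genes summed to 40.5 and 42.2 CPM.

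Some fibroblast and fat cell genes were also called between the libraries. Values of the listed genes, here and above, are without removal of the length trend, under which long transcripts were higher in replicate 1. The summed level of 6 fibroblast genes was 3604 CPM in replicate 1 and 961 CPM in replicate 2, and the collagens Col1a1, Col1a2 and Col3a1, which carry most of that sum, were called higher in replicate 1. The other 3 were not called: Dcn had a log2 ratio of 0.89, Lum 0.76 and Pdgfra -0.33. The 5 fat cell genes summed to 141 and 379 CPM, and Fabp4 and Cfd, which carry most of it, were called higher in replicate 2. Adipoq had 6 reads in replicate 1 and 23 in replicate 2 without a call (adjusted exact binomial p = 0.0677), and Plin1 (3 and 1 reads) and Lep (1 and 0) were too low to test. The 5 muscle fibre genes summed to 201605 and 196123 CPM. Their part in the differences of the myelin genes was not tested, and in bulk muscle a smaller share of nerve and less RNA per Schwann cell cannot be told apart.

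Spliced Mbp reads with a defined start were nearly all of the classic myelin kind. Classic transcripts start at the promoter used in myelinating cells, while the long Golli-type transcripts start 79324 bases upstream and are known from lymphoid cells and developing neurons. Of the Mbp reads, 425 in replicate 1 and 64 in replicate 2 were spliced from a classic start, against 0 and 1 from the Golli start. Single-exon models held 76 and 25 Mbp reads, which show no spliced start and were left untyped. Among them, 1 read of replicate 1 (82554764 to 82558703) ends at the annotated end of Mbp-205, a form with the Golli start. Among spliced reads with either start the classic share was 100% in replicate 1 (425 of 425, Wilson 95% interval 99.1 to 100) and 98.5% in replicate 2 (64 of 65, 91.8 to 99.7). The single spliced read from the Golli start ran from 82475162 to 82585626 of chromosome 18 through 8 exons. It joined the upstream exons to the classic ones in a combination outside the annotated forms. T cell and other leukocyte markers, which cover 1 place where Golli forms are known, had 0 reads in replicate 1 and 1 in replicate 2.

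**Figure D3:**
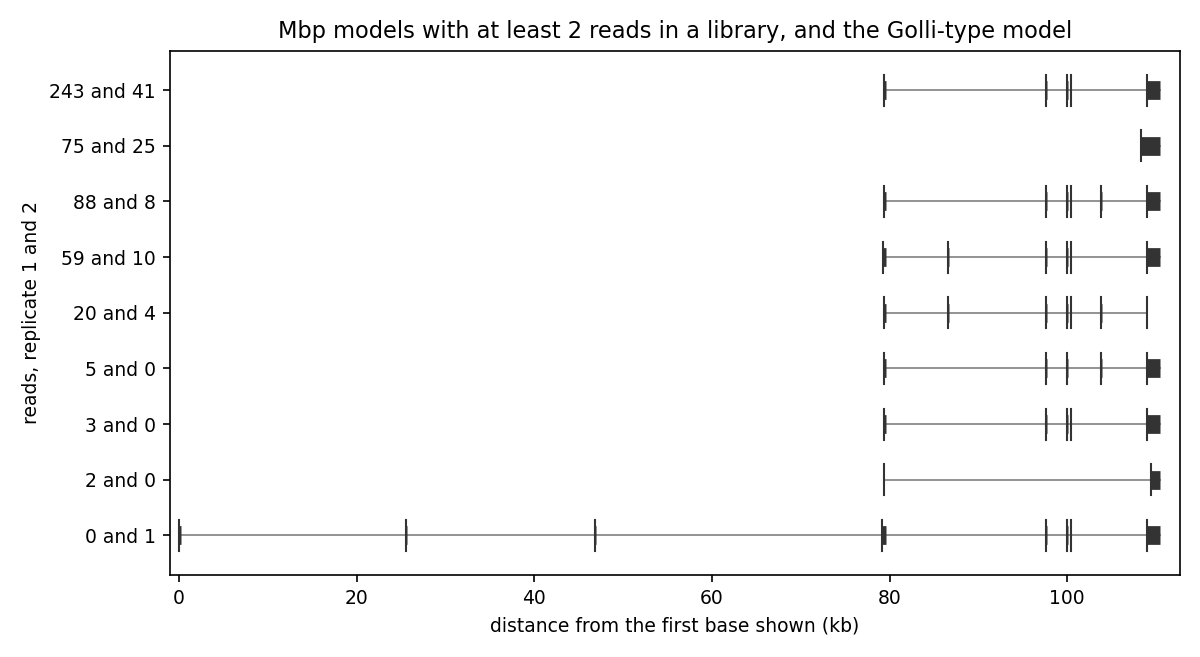
Exons (dark blocks) and introns (lines) of Mbp models with at least 2 reads in a library and of the Golli-type model, drawn to scale in kilobases from the first base shown, with reads of replicate 1 and 2 at the left. The spliced models begin near 79 kb apart from the single long model at the bottom (0 and 1 read), the model ends are those of the deposited annotation, and the row with 75 and 25 reads joins single-exon models at the 3′ end.

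The classic reads divided among the 4 forms that exon 2 (78 bases) and exon 6 (123 bases) define. The shortest, without both exons, led with 59.1% of classic reads in replicate 1 (251 of 425, Wilson 95% interval 54.3 to 63.6) and 65.6% in replicate 2 (42 of 64, 53.4 to 76.1), a mean of 62.3 ± 4.64% (SD, n = 2). Its main model, Mbp-211, with a coding length of 384 bases, had 243 and 41 reads. The form with exon 6 alone held 22.1% in replicate 1 and 12.5% in replicate 2, mostly Mbp-212 (88 and 8 reads, 507 coding bases). The form with exon 2 alone held 14.1% and 15.6%, mostly Mbp-215 (59 and 10 reads, 462 coding bases). The form with both, Mbp-209 (585 coding bases), had 20 and 4 reads, or 4.71% and 6.25%. The order of the exon 2 form and the exon 6 form by share differed between the libraries. In replicate 1 their intervals did not overlap (18.4 to 26.3 with exon 6 alone, 11.1 to 17.8 with exon 2 alone). At 64 classic reads in replicate 2 the intervals of these forms overlap.

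Exon 2 (chromosome 18, 82561778 to 82561855) was kept in 19.0% of the reads that cover it in replicate 1 (81 of 426, 15.6 to 23.0) and 21.5% in replicate 2 (14 of 65, 13.3 to 33.0), a mean of 20.3 ± 1.79% (SD, n = 2). Exon 2 carries a part of the protein that is known to favour entry into the nucleus. Exon 6 (82578936 to 82579058) was kept in 26.7% in replicate 1 (115 of 430, 22.8 to 31.1) and 18.5% in replicate 2 (12 of 65, 10.9 to 29.6), a mean of 22.6 ± 5.86% (SD, n = 2). The intervals of the libraries overlap for both exons, while the number of Mbp reads differed 7.47-fold in CPM. Exon 5 (33 bases) was kept in 98.1% (421 of 429) and 98.5% (64 of 65), and Mbp-210, an annotated form without it, had 5 reads in replicate 1 and 0 in replicate 2.

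Whole reads also show whether the exon choices go together. Exon 6 was kept in 25.0% of classic reads with exon 2 in replicate 1 (20 of 80, 16.8 to 35.5) and in 27.2% of those without it (94 of 345, 22.8 to 32.2). In replicate 2 the shares were 28.6% with exon 2 (4 of 14, 11.7 to 54.6) and 16% without it (8 of 50, 8.34 to 28.5). In both libraries the intervals with and without exon 2 overlap, so no link between the exons was detectable at this depth. Of the 16 annotated Mbp models 5 had reads, and 4 exon chains were found in both libraries and held 95.1% of spliced Mbp reads in replicate 1 and 96.9% in replicate 2.

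Pmp22 transcripts came mainly from the upstream start. Exon 1A (chromosome 11, 63128982 to 63129150, 169 bases) and exon 1B (63131512 to 63131654, 143 bases) begin 2530 bases apart and are noncoding, so transcripts from both encode the same protein (coding length 480 bases in every annotated coding model). In rodents the 1A start is known for myelinating Schwann cells and the 1B start for tissues outside the nerve. Exon 1A began 334 reads in replicate 1 and 99 in replicate 2, and exon 1B began 99 and 27. The 1A share of the 2 was 77.1% in replicate 1 (334 of 433, Wilson 95% interval 73.0 to 80.8) and 78.6% in replicate 2 (99 of 126, 70.6 to 84.8), a mean of 77.9 ± 1.01% (SD, n = 2). The shares differed by far less than their intervals, although the Pmp22 level differed 3.11-fold between the libraries.

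After its first exon Pmp22 was joined to exon 2 at either of 2 acceptors, 63133125 and 63133128, which lie 3 bases apart (cag) and before the coding start at 63133167. After exon 1A the upstream acceptor took 67.2% of reads in replicate 1 (223 of 332, 61.9 to 72.0) and 69.7% in replicate 2 (69 of 99, 60.05 to 77.9). After exon 1B it took 96.0% in replicate 1 (95 of 99, 90.1 to 98.4) and 96.3% in replicate 2 (26 of 27, 81.7 to 99.3). In each library the interval after exon 1A lay wholly below the interval after exon 1B. The leading Pmp22 chain, exon 1A with the upstream acceptor, had 223 reads in replicate 1 and 67 in replicate 2 and is absent from the annotation, which pairs exon 1A with the downstream acceptor (108 and 30 reads) and exon 1B with the upstream acceptor (94 and 25 reads). If annotated models alone are counted, the mean 1A share of 1A and 1B reads is 54.0% in place of 77.9%.

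**Figure D4:**
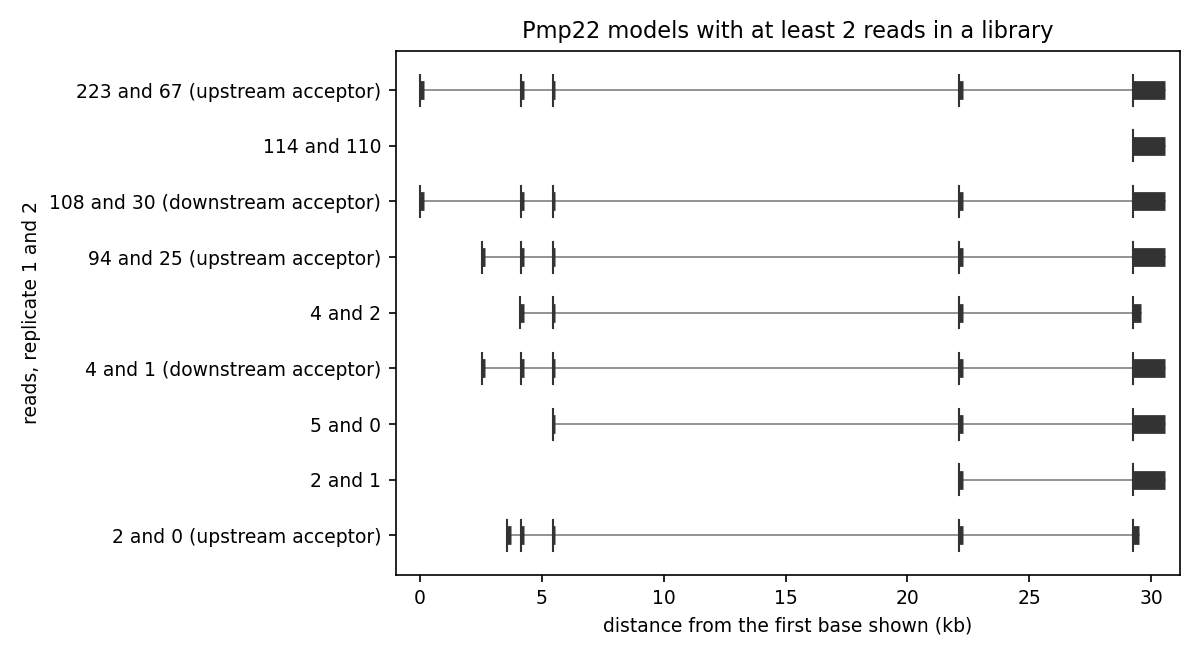
Exons (dark blocks) and introns (lines) of Pmp22 models with at least 2 reads in a library, drawn to scale in kilobases from the first base shown, with reads of replicate 1 and 2 and the acceptor of exon 2 at the left. The top chain (223 and 67 reads) and the annotated 1A model (108 and 30 reads) differ only by the 3 bases at the acceptor, and the row with 114 and 110 reads is single-exon.

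**Figure D5:**
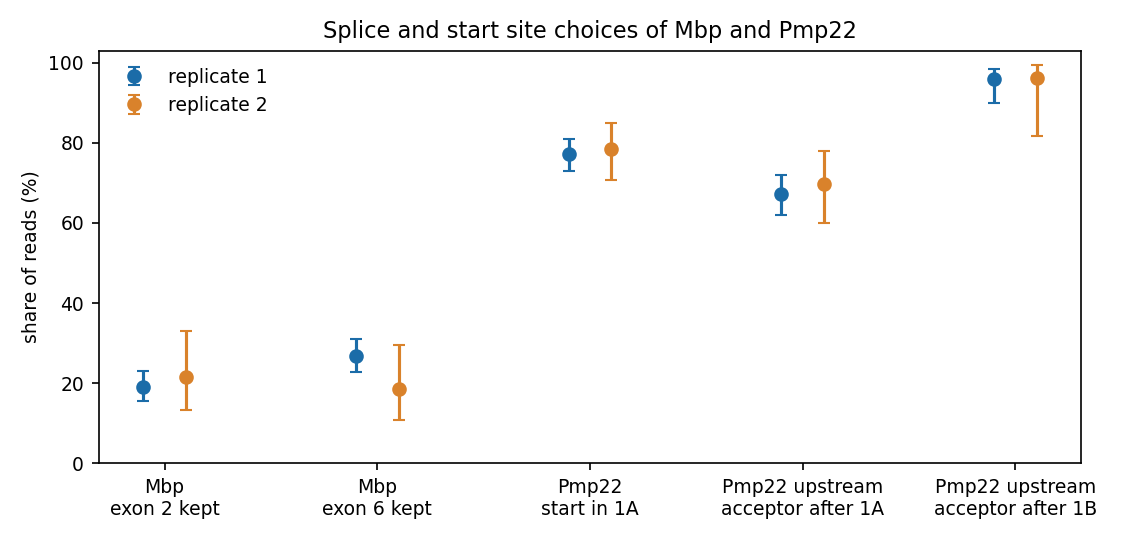
Share of reads (vertical axis, %) that keep Mbp exon 2 or exon 6, start Pmp22 in exon 1A and use the upstream acceptor after exon 1A or 1B, with Wilson 95% intervals for replicate 1 (blue) and replicate 2 (orange). The intervals of the libraries overlap at all 5 sites, and the acceptor share is lower after exon 1A (67.2% and 69.7%) than after exon 1B (96.0% and 96.3%).

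The 2 minor annotated Pmp22 starts were rare, with 4 and 2 reads for the start just before exon 2 and 2 and 0 for the start between that and exon 1B. A partial model of the last 3 exons had 5 reads in replicate 1 and 0 in replicate 2. A large part of the Pmp22 reads lay within the last exon alone. Such reads cross no intron, so they cannot show whether their transcripts were spliced. Single-exon models in the last exon held 114 reads in replicate 1 (20.3%, 17.2 to 23.8) in a model of 643 bases, and 110 in replicate 2 (46.0%, 39.8 to 52.4) in a model of 1295 bases. Those intervals do not overlap, and over all genes the single-exon share was 7.70% in replicate 1 and 16.5% in replicate 2. The origin of such reads was not tested.

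Mbp also had single-exon reads at its 3′ end, 75 in replicate 1 in a model of 2158 bases that begins in the intron before the last exon, and 25 in replicate 2 in a model of 695 bases within the last exon. Its share of single-exon reads was 15.0% (12.1 to 18.4) in replicate 1 and 27.8% (19.6 to 37.8) in replicate 2. Without single-exon, partial and genomic models, Mbp had 425 and 65 reads and Pmp22 439 and 128, so the direction of both differences stood on spliced transcripts as well.

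Prx was read mostly from its last exon. Of its 30 reads in replicate 1, 19 (63.3%, 45.5 to 78.1) were of 1 single-exon model of 4002 bases that covers most of the large last exon, and 6 were of the full form Prx-202, which encodes long periaxin (coding length 4173 bases). In replicate 2, 2 of 3 reads were single-exon. Long periaxin is the form with the large domain beyond the last intron, while short periaxin ends inside that intron, at the stop codon printed above. Reads across the intron were spliced in 9 of 11 cases in replicate 1 (81.8%, 52.3 to 94.9) and in 1 of 1 in replicate 2. Prx-203, the annotated retained form with a coding length of 444 bases, had 1 read in replicate 1 and 0 in replicate 2. No spliced chain of Prx was found in both libraries, and with so few reads the share of the short form cannot be set more closely.

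S100b had a single annotated form, S100b-201 (3 exons, coding length 276 bases), with 7 reads in each library. The other reads, 2 in replicate 1 and 4 in replicate 2, were single-exon. Of these, 2 and 3 lay in models that begin in the last intron (76258742 in replicate 1, 76258746 in replicate 2) and end at 76260071 inside the last exon, and 1 read of replicate 2 lay at the 3′ end. Of the related S100 genes, S100a1, which is made in muscle fibres, was higher in replicate 2 with 148 reads in replicate 1 and 365 in replicate 2, but below 2-fold (log2 ratio -0.89, adjusted exact binomial p = 1.10e-09). Without partial and genomic models S100a1 passed both thresholds (log2 ratio -1.06, adjusted exact binomial p = 6.21e-13). With all models none of the 6 tested S100 relatives was called in either direction, and their median log2 ratio was -0.48.

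Mpzl1 was read mainly as the long-tailed form. The annotated form that keeps the 106-base exon printed above, with a coding length of 810 bases, had 16 reads in replicate 1 and 8 in replicate 2. The annotated form that skips it, with a coding length of 627 bases, had 1 and 0. Over all models that cover the site the exon was kept in 19 of 20 reads in replicate 1 (95.0%, 76.4 to 99.1) and 10 of 10 in replicate 2 (72.2 to 100). The skipped form is known in human cells to lack the tail motifs that bind PTPN11. The phosphatase gene itself, Ptpn11, had 17 and 9 reads (log2 ratio 1.29, adjusted exact binomial p = 0.102). Single-exon reads of Mpzl1 numbered 0 of 23 in replicate 1, which allows a share of up to 13.04%, and 1 of 12 in replicate 2. The relatives Mpzl2 and Mpzl3 had 4 and 0 reads and 1 and 1 reads.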

How the data were processed

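Per the labels, RNA of gastrocnemius from 2 libraries of 1 group was sequenced as long reads. The authors' deposited tables hold raw read counts per transcript model, with each model's length and exon number, on mm10 with GENCODE M21 per the deposited notes, and the paired annotations carry TALON model identifiers per the file headers. The aligner and tool versions are not given in the sources used. Model classes are the authors': annotated, partial match, new combination, new junction, genomic and antisense.

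Reads were summed over all models of a gene, spike-ins left out. CPM used reads in annotated genes. A quasi-likelihood test in edgeR needs replicates on each side, so genes with 10 or more reads over both libraries were tested with a two-sided exact binomial test conditional on the library totals (smaller tail doubled), Benjamini-Hochberg adjusted, called at adjusted p under 0.05 and 2-fold, with 0.5 reads added for log2 ratios. Shares carry Wilson 95% intervals. Alternatives were TMM (edgeR 4.0.16), DESeq2 1.42.0 size factors, all mouse reads as total, no minimum, fewer model classes, models under 50 bases left out, and removal of a length trend (lowess, fraction 0.3). Exons came from GENCODE M21, promoters from RefSeq. Scripts were tested on simulated data. Models with at least 5 reads, or annotated ones, were described singly, and so was the Golli-type Mbp model, which the choice of genes names; other models named were chosen after their values were seen. The genes, lists and alternatives were chosen with earlier results of these data known. Depth was 1106945 and 1514119 reads, and no columns were left out. Some genes of the myelin protein list are not reported here.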

Additional observations from a re-analysis of the deposited data

Results flagged for a closer look

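Reads on the strand opposite to Pmp22 lie outside every comparison above. In replicate 2, 14 reads formed 1 single-exon model of 341 bases within the last exon of Pmp22 (chromosome 11, 63158566 to 63158906, minus strand), more than the 3 counts that a count of 0 allows. Replicate 1 had 2 reads in a model of 339 bases (63158566 to 63158904). The coordinate they share, 63158566, is the 3′ end on this strand. The strand call of such single-exon reads was not tested.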

How the results depend on the processing

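The calls rest on 2 libraries that may come from 1 donor entry, and the exact test covers counting error alone. Calls over all genes numbered 709 once the length trend was removed, against 1458. Of the 5 genes, 4 were called, and 2 when partial and genomic models were left out (22.8% of 6808 tested genes were called there, against 17.5% of 8339), where Prx had too few reads to be tested. The log2 ratio of S100b was -0.15 with TMM and -0.28 with DESeq2 size factors, which were 1 for both libraries. With that narrower set of models the mean level of S100b was 7.32 CPM, and the summed levels were 43.3 CPM for endothelium and 217102 CPM for muscle fibres. With annotated models alone, Mbp exon 5 was kept in 99.4%, Pmp22 exon 1A took 52.3% of annotated starts and 54.0% of 1A and 1B, and the upstream acceptor took 0% after 1A and 100% after 1B, since no annotated model holds the other pairings. With models of at least 2 reads, exon 5 was kept in 99.2% and the upstream acceptor took 98.0% after 1B. No paired analysis was possible because there is 1 group.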
